A study of Gallus gallus with 24 samples.

Results

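Gene expression in the soleus (SOL), a small muscle of the lower leg, was compared with that in the pectoralis major (PEM), the large flight muscle of the breast, in chickens that had received a high-fat diet for 60 days (LHFD). The comparison used 8 of the 24 libraries of the series, 4 per muscle, and every gene with at least 1 FPKM in at least 4 of the 24 libraries, which were 10944 of the 20780 genes in the table. The muscles belonged to Guangyuan Grey hens, a chicken breed, which entered the experiment at 150 days of age and were killed at 210 days after a fast of 12 h. The other 16 libraries came from the same muscles of hens on a control diet (CONT) or on the high-fat diet for 15 days (SHFD), killed at the same age, 4 libraries per muscle and diet. PEM tissue was cut from the skin-facing side of the muscle and SOL tissue from its widest region without the surface layer, so each library holds all cell types of a block of tissue. Both muscles were taken from the 9 birds selected per diet, but the labels do not tie a library to a bird. The p-values below therefore measure only the spread between these libraries.

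Skeletal muscle fibres differ in the isoforms of myosin, troponin and calcium pumps that they build and in how they make ATP. Slow oxidative fibres contract slowly, hold many mitochondria and much myoglobin, and burn fatty acids, whereas fast glycolytic fibres contract quickly and rely on glycogen and lactate production. The breast muscle of the chicken consists almost wholly of fast glycolytic fibres, whereas its soleus combines oxidative fibres with glycolytic ones.

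Levels are given in FPKM, in which fragments are counted per length of transcript and per size of library. Levels of different genes can thus be set side by side per length, while the depth of sequencing stays unknown. The 8 libraries summed to between 474667 and 523309 FPKM. In SOL, 10049 to 10331 genes reached 1 FPKM, and in PEM 9374 to 9991. Genes encoded in the mitochondrial genome, 13 in all, made up 21.0% to 24.9% of the sum in SOL but 12.1% to 14.6% in PEM. The first principal component held 71.6% of the variance of the 8 libraries and separated the muscles. Correlations of log2(FPKM + 1) were 0.972 to 0.984 within SOL, 0.959 to 0.976 within PEM and 0.859 to 0.902 between muscles. A single library stood apart in each muscle. The library numbered 4 of SOL had a summed level of 19 slow-fibre sarcomere genes of 29414 FPKM against 9899 to 12217 in the other 3, and a summed level of 18 fast-fibre sarcomere genes of 31703 FPKM against 47500 to 53706. PEM 1 had the highest sums of the fibroblast, adipocyte, macrophage and lymphocyte marker lists among the PEM libraries.

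Of the 10944 genes, 4795 (43.8%) differed between the muscles at an adjusted p under 0.05 in limma, 3163 higher in SOL (28.9%) and 1632 lower (14.9%). Without SOL 4 and PEM 1, the counts were 2875 higher and 1374 lower. The difference was at least 1 on the log2 scale for 934 of the higher and 364 of the lower genes, and at least 3 for 83 and 24. Fold changes below are SOL minus PEM on the log2(FPKM + 1) scale, given ± SE, and this scale understates the change of genes at a few FPKM. The median over all genes was 0.14, and after quantile normalization it was -0.05 and the share of calls that were higher moved from 66.0% to 43.3%. For 4590 genes (41.9%) the 4 SOL and 4 PEM libraries did not overlap, 27% of all genes with SOL above PEM. There were 604 genes under 1 FPKM in all 4 PEM but not all 4 SOL libraries, of which 424 were called higher in SOL. The reverse held for 240 genes, of which 118 were called lower. Both sets were chosen by the same levels that were then tested, which favours calls in these directions. The counts are therefore no separate evidence of direction. MYL2, MYH7, ASB18, PVALB, SLC16A7, PROX1 and CIDEC, named below, were also under 1 FPKM in all 4 PEM libraries. None of these PEM libraries helped them pass the expression filter, which favours a difference in their tests and list counts. Since whole tissue was sequenced, a lower level of a gene can come from fewer cells of a type or from less RNA per cell, and these cannot be told apart.

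**Figure D1:**
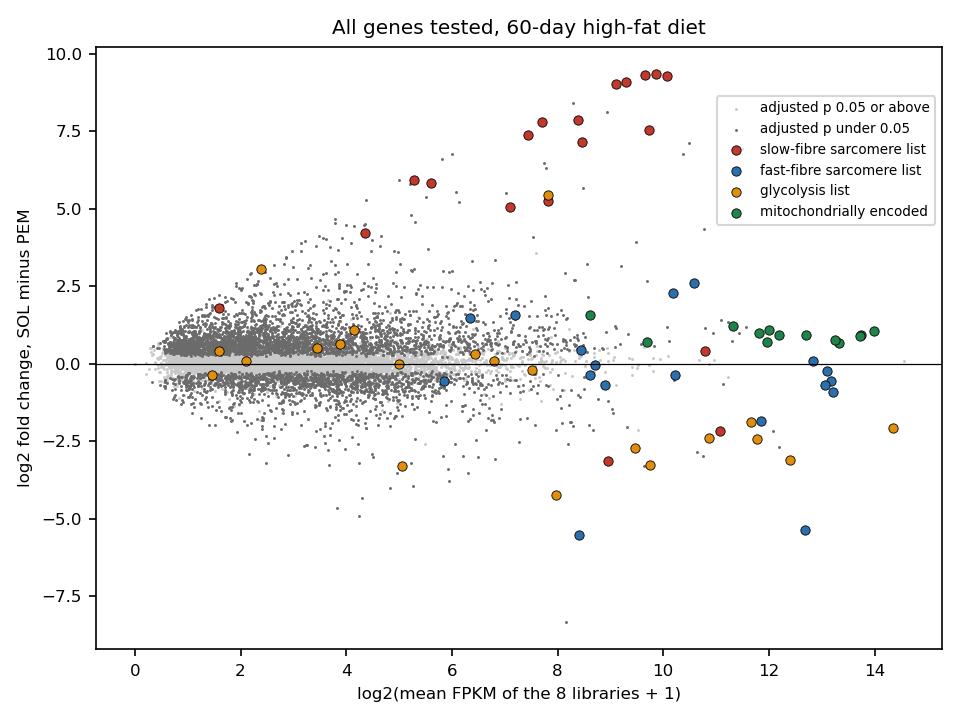
Log2 fold change of SOL over PEM (y axis) against the log2 of the mean FPKM of the 8 libraries plus 1 (x axis) for the 10944 genes tested, with dark dots for the 4795 called genes and coloured circles for 4 gene lists. The slow-fibre sarcomere genes reach 9.33 above zero, glycolysis genes lie on both sides of zero, from -4.23 to 5.45 for LDHB, and the 13 mitochondrially encoded genes lie between 0.68 and 1.55.

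Among 19 sarcomere and Z-disc genes associated with slow or cardiac muscle, 17 rose in SOL (89.5%) and 2 fell (10.5%), with a median of 7.15. The shares of all genes were 28.9% and 14.9%. The muscles did not overlap for any of the 19, nor for 41.9% of all genes. MYH7B, a slow myosin heavy chain, was at 1236, 714, 1024 and 4455 FPKM in SOL libraries 1 to 4 and at 7.68, 1.16, 0.159 and 0.0871 in PEM libraries 1 to 4, a log2 fold change of 9.33 ± 0.65, adjusted p = 3.37e-10. SOL 4 was the highest SOL library and PEM 1 the highest PEM library, and no SOL value came near the PEM range. TNNI1, the inhibitory troponin of slow fibres, was at 1104, 1743, 988 and 4743 FPKM in SOL and 6.5, 1.83, 0.855 and 0.551 in PEM (9.28 ± 0.60, adjusted p = 9.02e-11). The slow troponin T gene TNNT1 was at 844, 1076, 729.7 and 2386 FPKM in SOL and 5.85, 1.1, 0.166 and 0.0899 in PEM (9.08 ± 0.55, adjusted p = 3.41e-11). Both troponins followed the same order of libraries at the extremes, with SOL 4 and PEM 1 highest. MYL10, a regulatory myosin light chain, was at 1206, 1053, 731 and 3484 FPKM in SOL and 5.23, 1.59, 0.23 and 0 in PEM (9.31 ± 0.61, adjusted p = 1.07e-10). MYL3, the slow essential light chain, was at 857, 788, 585 and 2140.4 FPKM in SOL and 4.31, 0.849, 0.141 and 0.0246 in PEM (9.03 ± 0.51, adjusted p = 1.10e-11). Each of these 5 genes exceeded 500 FPKM in every SOL library and stayed under 10 FPKM in every PEM library.

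SOL 4 was the highest SOL library for 15 of the 17 genes of the slow list that rose. MYL2, the slow regulatory light chain, was one of the 2 that did not follow it, with 37.1, 178, 152 and 13.2 FPKM in SOL and 0.161, 0.128, 0.122 and 0 in PEM (5.81 ± 0.70, adjusted p = 1.04e-06). SOL 4 held the least MYL2 and the most MYL10 and MYL3 of the SOL libraries. MYH7, the slow heavy chain of mammalian muscle, was at 3.35, 0.788, 0.658 and 11.3 FPKM in SOL and at most 0.0431 in PEM (1.81 ± 0.46, adjusted p = 0.00339), far below MYH7B per length. MYH15, another slow myosin gene, stayed under 1 FPKM in all 8 libraries and was not tested. Chosen after its value was seen, an unnamed gene that the table annotates as a myosin heavy chain of the cardiac and slow group, ENSGALG00000035960, was at 488, 793, 502 and 726 FPKM in SOL and 1.74, 0.655, 0.637 and 0.422 in PEM (8.41 ± 0.26, adjusted p = 2.52e-16). Without SOL 4 and PEM 1, 16 slow-list genes rose and 2 fell.

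MYBPC1, the slow myosin-binding protein C, was at 1665, 1339.8, 1568 and 2171 FPKM in SOL and 4.81, 0.853, 13.2 and 42.2 in PEM (7.53 ± 0.93, adjusted p = 1.39e-06). In PEM its highest value was in library 4, and even that lay below the lowest SOL value by a wide gap. MYOZ2, a Z-disc protein that binds calcineurin, was at 475, 578, 510.3 and 1115 FPKM in SOL and 3.53, 0.641, 2.31 and 1.26 in PEM (7.85 ± 0.36, adjusted p = 3.54e-13). CSRP3, the muscle LIM protein, had a fold change of 7.80 ± 0.49, adjusted p = 6.50e-11, and LMOD2, which lengthens thin filaments, of 7.37 ± 0.32, adjusted p = 8.24e-14. ANKRD2, a stretch-responsive ankyrin repeat protein, was at 324, 440.3, 300.5 and 1745 FPKM in SOL and 3.64, 0.872, 7.2 and 1.6 in PEM (7.15 ± 0.58, adjusted p = 3.12e-09). TPM2, beta-tropomyosin, was at 3003, 2897, 2834 and 2606 FPKM in SOL and 20.4, 6.37, 28.8 and 35.6 in PEM (7.12 ± 0.52, adjusted p = 7.31e-10), and its 4 SOL libraries lay within a narrow range, with library 4 lowest. FHL1, a LIM-domain protein of the sarcomere, was at 2260.4, 2258, 2743 and 3313 FPKM in SOL and 20.8, 9.75, 46.1 and 28.9 in PEM (6.77 ± 0.49, adjusted p = 5.58e-10). ASB18, an ankyrin repeat protein with a SOCS box, was at 101, 116, 98.6 and 128 FPKM in SOL and 0.345, 0.14, 0 and 0.105 in PEM (6.60 ± 0.20, adjusted p = 1.86e-16). It was above 98 FPKM in every SOL library and below 0.4 in every PEM library. ASB18 passed the expression filter only through SOL libraries, which favours a difference.

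The 2 members of the slow list that were lower in SOL were TNNC1 and ANKRD1. TNNC1, the slow and cardiac troponin C of mammals, was at 627, 673, 466 and 1666 FPKM in SOL and 3951, 3607, 2938 and 3301 in PEM (-2.18 ± 0.39, adjusted p = 1.15e-04). Every PEM library was above every SOL library, with SOL 4 again the highest SOL library. ANKRD1, a cardiac and stress-responsive ankyrin repeat protein, was at 63.3, 189, 34.8 and 166 FPKM in SOL and 595, 806, 1444 and 663 in PEM (-3.16 ± 0.89, adjusted p = 0.00682). PEM 3 held the highest value, and the muscles did not overlap.

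Among 18 fast-fibre sarcomere genes, 4 rose in SOL (22.2%), 5 fell (27.8%) and 9 were not called, with a median of -0.36. The shares of all genes were 28.9% higher and 14.9% lower. MYH1E, a member of the chicken fast myosin heavy chain family, was at 301, 441, 281 and 244 FPKM in SOL and 10851, 13313, 13397 and 13576 in PEM (-5.36 ± 0.36, adjusted p = 1.65e-10). The lowest PEM library held more than 20 times the highest SOL library. MYBPHL, a relative of myosin-binding protein H, was at 22.9, 13.1, 6.36 and 15.7 FPKM in SOL and 684, 763, 715 and 496 in PEM (-5.53 ± 0.68, adjusted p = 1.47e-06). TPM1, alpha-tropomyosin, was at 1943, 1873, 1529.9 and 1138 FPKM in SOL and 6362, 6049, 5696 and 5055 in PEM (-1.86 ± 0.36, adjusted p = 2.63e-04), the opposite direction from TPM2.

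Other members of the fast myosin family were higher in SOL. MYH1C was at 3119.8, 2994, 2823 and 1589 FPKM in SOL and 430.4, 498, 410.4 and 355 in PEM (2.59 ± 0.43, adjusted p = 5.54e-05), and SOL 4 was its lowest SOL library. MYH1A was at 3232, 1437, 2403 and 806 FPKM in SOL and 307, 486, 333 and 337 in PEM (2.26 ± 0.76, adjusted p = 0.0195), and without SOL 1 its adjusted p was 0.0629. MYH1D was at 71.8, 178, 142 and 83.3 FPKM in SOL and 22.7, 46.5, 41.3 and 57.3 in PEM (1.46 ± 0.49, adjusted p = 0.0193), and leaving out any of 3 libraries (SOL 2, SOL 3 or PEM 1) gave an adjusted p of 0.0514 to 0.0664. MYH1F had a fold change of 1.57 ± 0.61, adjusted p = 0.0427, overlapped between muscles, and lost the call when any library but SOL 4 or PEM 2 was left out (adjusted p 0.0751 to 0.115). These genes are close copies of one another, and reads they share could have been assigned to any of them. The fast troponins were abundant in both muscles. TNNC2 was at 8672, 8313, 7973 and 5321 FPKM in SOL and 6661, 7070.2, 7596 and 7037 in PEM (0.07 ± 0.34, adjusted p = 0.884). TNNI2 was at 7552, 7306, 6962 and 4752 FPKM in SOL and 11854, 10763, 10699.8 and 8913 in PEM (-0.68 ± 0.33, adjusted p = 0.0998). TNNT3 had a fold change of -0.57 ± 0.33, adjusted p = 0.175. For TNNI2 and TNNT3 every SOL library lay below every PEM library, and with only the 8 LHFD libraries in the fit both were called, at an adjusted p of 0.0155 and 0.034. Without SOL 4 and PEM 1, 2 genes of the fast list rose and 4 fell.

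**Figure D2:**
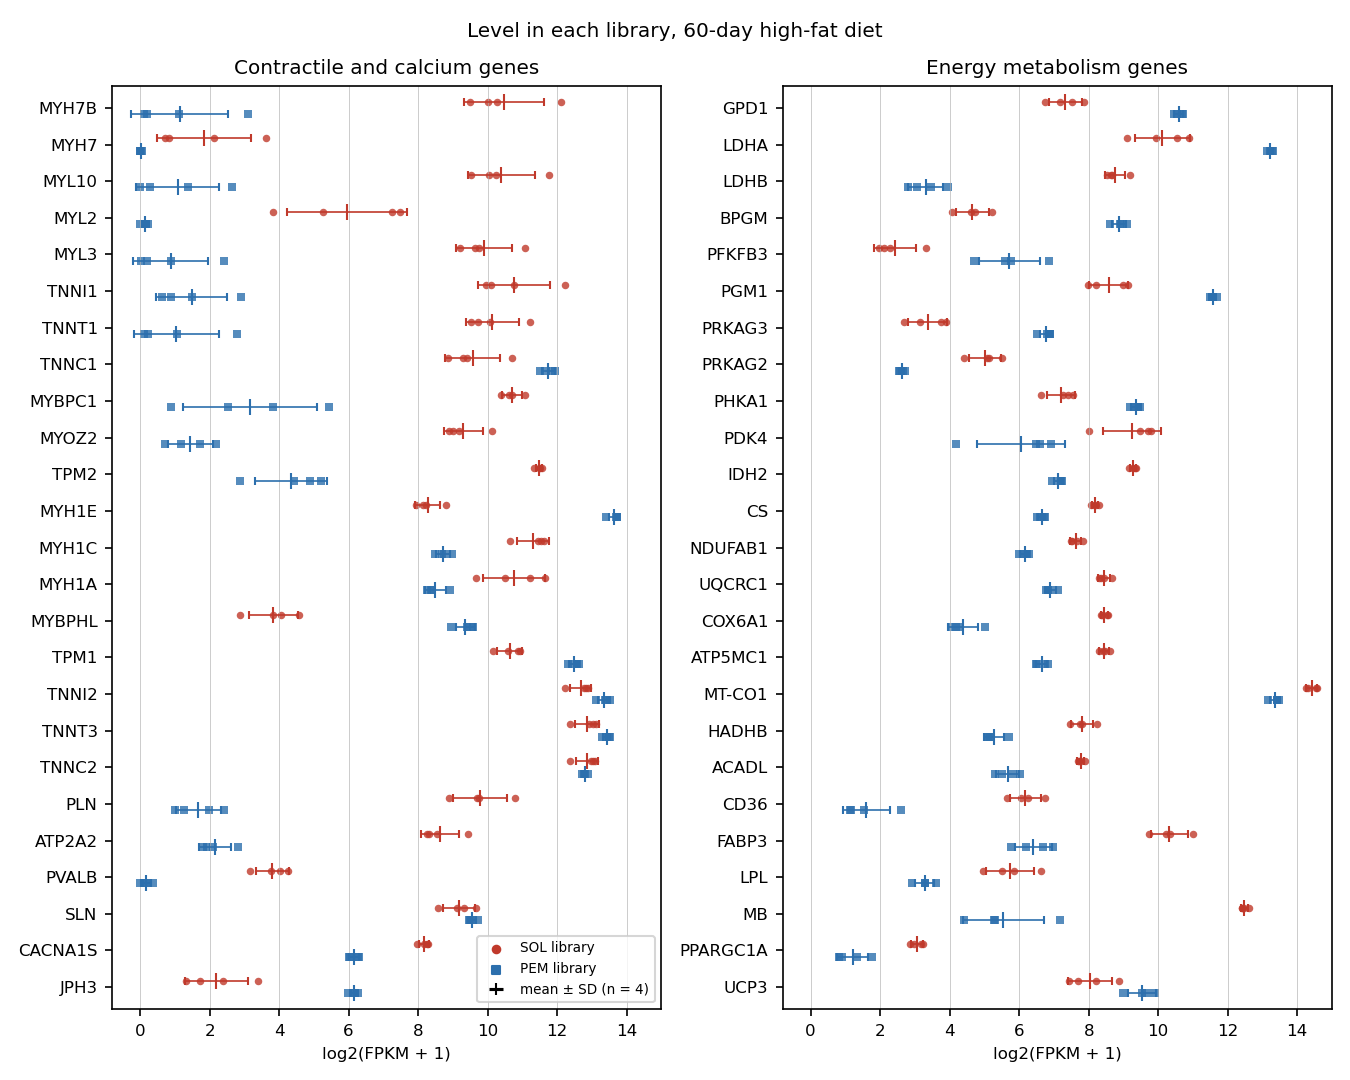
Level of each gene as log2(FPKM + 1) (x axis) in the 4 SOL libraries (red circles) and 4 PEM libraries (blue squares) of the 60-day high-fat diet, with a tick and bar for the mean ± SD (n = 4). MYH7B, TNNI1, PLN and MB are separated by gaps of several log2 units, MYH1E, GPD1, BPGM and LDHA lie to the right in PEM, and TNNC2 and SLN overlap.

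Calcium handling genes went both ways, 7 higher (33.3%) and 5 lower (23.8%) of 21, against 28.9% and 14.9% of all genes. Without SOL 4 and PEM 1 the counts were 8 and 5, and the median of 0.16 became -0.08 after quantile normalization. PLN, phospholamban, which restrains the slow calcium pump, was at 469.5, 862, 835 and 1759 FPKM in SOL and 4.33, 1.01, 2.98 and 1.41 in PEM (8.11 ± 0.41, adjusted p = 1.58e-12). ATP2A2, the calcium pump of slow and cardiac sarcoplasmic reticulum, was at 318, 373, 302 and 689 FPKM in SOL and 6.12, 2.48, 2.82 and 3.32 in PEM (6.47 ± 0.31, adjusted p = 8.19e-13). For both, every SOL library was above 300 FPKM and every PEM library below 7. CACNA1S, the voltage sensor of the transverse tubule, was at 311, 251, 302 and 289 FPKM in SOL and 78.4, 64.8, 75.7 and 63.5 in PEM (2.02 ± 0.12, adjusted p = 4.59e-11), with tight values in both muscles. PVALB, parvalbumin, a calcium buffer of fast fibres in mammals, was low in both muscles but higher in SOL, at 12.6, 18.2, 15.4 and 7.91 FPKM in SOL and 0.295, 0.127, 0.0936 and 0 in PEM (3.64 ± 0.60, adjusted p = 5.39e-05). JPH3, a junctophilin that ties membranes together, was at 2.29, 9.44, 4.18 and 1.48 FPKM in SOL and 76.3, 62.5, 72.3 and 72.1 in PEM (-3.96 ± 0.28, adjusted p = 2.96e-10). CALM2, a calmodulin gene, fell with -2.03 ± 0.18, adjusted p = 7.87e-09. RYR3, a calcium release channel, fell with -1.38 ± 0.15, adjusted p = 1.82e-07. SLN, sarcolipin, overlapped (-0.38 ± 0.39, adjusted p = 0.452), as did CASQ2, calsequestrin (-0.14 ± 0.14, adjusted p = 0.423, and 0.0304 after quantile normalization).

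Glycolytic genes were lower in SOL for 9 of 21 tested (42.9%) and higher for 4 (19%), with a median of -0.19. The shares of all genes were 14.9% and 28.9%, and without SOL 4 and PEM 1 the counts were 9 and 3. LDHA, the lactate dehydrogenase subunit of glycolytic muscle, was at 1900.3, 1492, 974 and 546 FPKM in SOL and 9434, 9841, 10018 and 9043 in PEM (-3.11 ± 0.47, adjusted p = 1.78e-05). LDHB, the subunit of oxidative tissue, ran the other way at 364, 405, 399.6 and 582 FPKM in SOL and 14.3, 9.98, 7.28 and 5.9 in PEM (5.45 ± 0.32, adjusted p = 2.50e-11). SOL 4 was lowest of all libraries in LDHA and highest of all in LDHB. GPD1, which moves reducing equivalents from the cytosol, was at 234, 181, 145 and 107 FPKM in SOL and 1477, 1391, 1643 and 1661 in PEM (-3.26 ± 0.29, adjusted p = 1.02e-08). BPGM, bisphosphoglycerate mutase, was at 36, 25.5, 23.4 and 15.9 FPKM in SOL and 487, 544, 389.8 and 477 in PEM (-4.23 ± 0.24, adjusted p = 1.10e-11). PFKFB3, which makes the activator of phosphofructokinase, was at 3.91, 2.93, 3.34 and 8.89 FPKM in SOL and 24.8, 115, 53.1 and 46.9 in PEM (-3.30 ± 0.63, adjusted p = 2.30e-04), and its spread in PEM was wide, with library 2 highest. SOL 4 was the lowest SOL library for 8 of the 9 genes that fell. SLC16A7, a monocarboxylate transporter, was at 4.58, 7.59, 10.6 and 10.8 FPKM in SOL and 0.13, 0.078, 0.0752 and 0.0263 in PEM (3.06 ± 0.24, adjusted p = 1.46e-09). SLC16A1, of the same family, rose with 1.10 ± 0.19, adjusted p = 7.31e-05. PFKFB2 rose by less (0.40 ± 0.15, adjusted p = 0.0348) and lost the call without SOL 3, SOL 4, PEM 1, PEM 2 or PEM 3, with an adjusted p of up to 0.108.

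Genes of glycogen storage and breakdown were lower in SOL for 14 of 25 tested (56%) and higher for 6 (24%), with a median of -0.83. The shares of all genes were 14.9% and 28.9%, and without SOL 4 and PEM 1 the counts were also 14 and 6. PGM1, phosphoglucomutase, which links glycogen to glycolysis, was at 560.3, 502, 296 and 252 FPKM in SOL and 3016, 2859, 3305 and 2969 in PEM (-2.99 ± 0.30, adjusted p = 8.32e-08). PRKAG3, the AMP-activated protein kinase (AMPK) gamma subunit of glycolytic muscle, was at 12.4, 14, 7.92 and 5.38 FPKM in SOL and 111, 90.6, 118 and 116 in PEM (-3.40 ± 0.34, adjusted p = 7.20e-08). PRKAG2, another gamma subunit of AMPK, was at 33.7, 20.3, 44.9 and 32.4 FPKM in SOL and 4.93, 5.24, 5.6 and 4.83 in PEM (2.41 ± 0.23, adjusted p = 4.09e-08). The 2 subunits thus went opposite ways, with no overlap between muscles for either. PHKB and PHKA1, subunits of phosphorylase kinase, fell with -2.52 ± 0.25, adjusted p = 5.09e-08, and -2.15 ± 0.23, adjusted p = 1.51e-07. PPP1R3B, which targets a phosphatase to glycogen, was at 13.3, 11.5, 14.6 and 10.1 FPKM in SOL and 2.24, 1.16, 1.58 and 4.96 in PEM (2.04 ± 0.36, adjusted p = 1.19e-04). UGP2, which makes UDP-glucose for glycogen, was at 349.5, 294, 554 and 341 FPKM in SOL and 103, 127, 128 and 135 in PEM (1.60 ± 0.27, adjusted p = 5.74e-05). PGM5, a relative of PGM1 found at cell junctions, was at 80.9, 75, 70.8 and 172 FPKM in SOL and 17.6, 18.8, 8.51 and 4.63 in PEM (2.98 ± 0.50, adjusted p = 5.69e-05), with SOL 4 far above the other SOL libraries.

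Enzymes and regulators in and around the tricarboxylic acid cycle were higher in SOL for 21 of 33 tested (63.6%) and lower for 3 (9.1%). Their median was 0.74, and the shares of all genes were 28.9% and 14.9%. The 21 include kinases that restrain entry into the cycle. The largest rises were in 3 pyruvate dehydrogenase kinases, which switch off the entry of pyruvate into the cycle. PDK4 was at 713, 256, 838 and 878 FPKM in SOL and 17.1, 95.7, 88.9 and 120.2 in PEM (3.20 ± 0.68, adjusted p = 7.18e-04), with SOL 2 the lowest SOL library and PEM 1 the lowest PEM library. PDK1 was at 32, 24.9, 33.4 and 49.7 FPKM in SOL and 4.58, 3.56, 7.56 and 5.73 in PEM (2.50 ± 0.28, adjusted p = 3.41e-07). PDK2 had a fold change of 2.27 ± 0.32, adjusted p = 8.41e-06. PDP1, a phosphatase that reverses the action of these kinases, was at 70.2, 35.1, 47.8 and 31 FPKM in SOL and 122, 146, 119 and 148 in PEM (-1.58 ± 0.32, adjusted p = 4.31e-04). IDH2, the mitochondrial isocitrate dehydrogenase, was at 614, 569, 639 and 653 FPKM in SOL and 148, 142, 121 and 146 in PEM (2.14 ± 0.15, adjusted p = 3.75e-10). CS, citrate synthase, was at 269, 284, 294 and 313 FPKM in SOL and 96, 89.7, 106 and 105 in PEM (1.54 ± 0.11, adjusted p = 4.15e-10), and its values within a muscle differed little. MDH1, cytosolic malate dehydrogenase, rose with 1.72 ± 0.13, adjusted p = 1.30e-09. The 2 other genes that fell were ME1, malic enzyme, which supplies NADPH (-1.59 ± 0.24, adjusted p = 1.66e-05), and PC, pyruvate carboxylase (-0.59 ± 0.12, adjusted p = 5.76e-04).

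Nearly all respiratory chain subunits found by symbol were higher in SOL, with similar medians across the complexes. Listed symbols without a match were left out. Complex I had 31 of 32 genes higher with a median of 0.76, complex III with cytochrome c 7 of 8 with 0.89, complex IV 9 of 9 with 0.73, and ATP synthase 10 of 10 with 0.83, and none was called lower, against 28.9% higher and 14.9% lower among all genes. After quantile normalization these counts were 24, 5, 6 and 9, again with none lower. NDUFAB1, the acyl carrier subunit of complex I, was at 179, 202, 228 and 181 FPKM in SOL and 73.6, 69.4, 62.2 and 76.8 in PEM (1.47 ± 0.11, adjusted p = 9.79e-10). UQCRC1, a core subunit of complex III, was at 315, 324, 409 and 343 FPKM in SOL and 108, 113, 116 and 138 in PEM (1.54 ± 0.12, adjusted p = 1.66e-09). ATP5MC1, which encodes the rotor ring of ATP synthase, was at 311, 351, 393 and 342 FPKM in SOL and 112, 89.9, 89.2 and 107 in PEM (1.80 ± 0.14, adjusted p = 9.92e-10). The SOL values of each of these 3 genes lay more than 2-fold above the highest PEM value. COX6A1, an isoform subunit of complex IV, departed from the others at 329.6, 327, 366 and 376 FPKM in SOL and 31.1, 18.4, 17 and 15.6 in PEM (4.07 ± 0.23, adjusted p = 8.68e-12). COX5A, the next in that complex, had a fold change of 1.33. COX7A2 had the largest adjusted p of those named in complex IV (0.73 ± 0.26, adjusted p = 0.0265) and lost the call without SOL 1, SOL 2, PEM 2 or PEM 4 (adjusted p 0.0589 to 0.0921).

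All 13 mitochondrially encoded genes were higher in SOL, with a median of 0.93, and 8 of the 13 were called with no expression filter. MT-CO1, the catalytic subunit of complex IV, was at 19688, 23634, 24449.6 and 20176 FPKM in SOL and 11341, 9064, 10949 and 10942 in PEM (1.05 ± 0.15, adjusted p = 6.45e-06), and was among those that lost the call then, at an adjusted p of 0.0628. ND6, a complex I subunit, changed most, at 489, 659, 656 and 536 FPKM in SOL and 219, 204, 155 and 217 in PEM (1.55 ± 0.13, adjusted p = 5.81e-09). ND5 and ND4 had fold changes of 1.22 and 1.09. Because FPKM are shares of a library, this rise lowers the shares of the nuclear genes in SOL, and scaling to an equal sum of nuclear genes moved the median of all genes from 0.14 to 0.22. The median of 69 mitochondrial ribosomal proteins was 0.20. Of these, 23 were called higher in SOL (33.3%) and 6 lower (8.7%), against 28.9% and 14.9% of all genes. The largest were MRPL15 (1.02 ± 0.20, adjusted p = 4.11e-04) and MRPL38 (0.94 ± 0.16, adjusted p = 6.94e-05) among the higher and MRPL34 (-0.66 ± 0.12, adjusted p = 1.55e-04) among the lower. Under quantile normalization 18 were higher and 9 lower.

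Fatty acid oxidation genes were higher in SOL for 19 of 23 tested (82.6%) and lower for none, with a median of 1.11. The shares of all genes were 28.9% and 14.9%. DECR1, which prepares unsaturated fatty acids for oxidation, was at 81.8, 108, 109 and 154 FPKM in SOL and 16.9, 7.9, 15.9 and 13 in PEM (3.0 ± 0.26, adjusted p = 8.63e-09). HADHB, a subunit of the mitochondrial trifunctional protein, was at 223, 174, 299.6 and 212 FPKM in SOL and 33.5, 34.8, 33.8 and 51 in PEM (2.54 ± 0.29, adjusted p = 3.98e-07). ACAA2, the last thiolase of the spiral, was at 68.2, 77.8, 79.4 and 82.2 FPKM in SOL and 13.1, 12.7, 12.6 and 13.7 in PEM (2.47 ± 0.24, adjusted p = 4.06e-08). For these 3 genes the lowest SOL library exceeded the highest PEM library by more than 3-fold. ETFA, which carries electrons to the respiratory chain, and ACADL, the long-chain acyl-CoA dehydrogenase, rose with 2.33 ± 0.15, adjusted p = 1.35e-10, and 2.11 ± 0.17, adjusted p = 3.14e-09. ACSL1, which activates fatty acids, was at 91.1, 80.3, 114 and 93.1 FPKM in SOL and 16.4, 12.2, 17.6 and 19.4 in PEM (2.46 ± 0.25, adjusted p = 1.16e-07). CPT1A, a carnitine palmitoyltransferase at the mitochondrial entry step, was at 7.7, 4.25, 8.51 and 5.75 FPKM in SOL and 6.16, 4.77, 6.81 and 11.4 in PEM (-0.11 ± 0.24, adjusted p = 0.732) and overlapped, with the sign of its difference turning without SOL 2 or without PEM 4.

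Genes of fatty acid uptake and storage rose in SOL for 20 of 34 tested (58.8%) and fell for 2 (5.9%), with a median of 0.72. The shares of all genes were 28.9% and 14.9%. CD36, a fatty acid receptor of the cell surface, was at 49.7, 75.1, 107 and 65 FPKM in SOL and 1.88, 5.01, 1.22 and 1.21 in PEM (4.58 ± 0.35, adjusted p = 1.31e-09). FABP3, a carrier of fatty acids in heart and oxidative muscle, was at 846, 1184, 1291 and 2052 FPKM in SOL and 124, 53.4, 73 and 101 in PEM (3.92 ± 0.36, adjusted p = 1.72e-08). LPL, lipoprotein lipase, which frees fatty acids in capillaries, was at 30, 56.5, 98.1 and 44.7 FPKM in SOL and 11.2, 6.54, 8.82 and 8.77 in PEM (2.46 ± 0.46, adjusted p = 2.11e-04), highest in SOL 3. None of the 3 overlapped between the muscles. AGPAT2 and GPAM, which build phosphatidic acid, rose together. AGPAT2 was at 12.5, 10.3, 9.99 and 7.22 FPKM in SOL and 1.46, 0.484, 0.602 and 0.793 in PEM (2.59 ± 0.25, adjusted p = 3.89e-08). GPAM had a fold change of 2.58 ± 0.23, adjusted p = 1.35e-08. PLIN1 and CIDEC, coat proteins of lipid droplets in fat cells, rose with 2.74 ± 0.31, adjusted p = 4.40e-07, and 1.19 ± 0.16, adjusted p = 4.81e-06. DGAT2, which completes triglycerides, was at 3.31, 2.39, 2.57 and 2.73 FPKM in SOL and 7.72, 8.0, 6.73 and 26.1 in PEM (-1.60 ± 0.27, adjusted p = 6.65e-05), with PEM 4 far above the other PEM libraries. PNPLA3, a lipid droplet hydrolase and acyltransferase, was the other gene that fell (-0.76 ± 0.14, adjusted p = 1.89e-04). Of 7 adipocyte markers tested, 5 were called higher (71.4%). They include LPL, PLIN1 and CIDEC, given above, and PLIN1 belongs to both lists, so the lists are not separate. The adipocyte markers summed to 129 to 200.3 FPKM in SOL and 29.6 to 87.7 in PEM. ADIPOQ, which fat cells secrete, was at 40.4, 31.3, 42.8 and 44.5 FPKM in SOL and 15.3, 19.5, 14.3 and 11.8 in PEM. Their part in the result was not tested.

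A list of nuclear receptors, their cofactors and related genes, UCP3 among them, went both ways, 6 higher (35.3%) and 5 lower (29.4%) of 17. The shares of all genes were 28.9% and 14.9%. PPARA, a receptor for fatty acids, was at 11.9, 9.89, 15.2 and 10.8 FPKM in SOL and 1.98, 1.9, 2.65 and 2.15 in PEM (2.02 ± 0.27, adjusted p = 4.49e-06). PPARGC1A, the coactivator PGC-1alpha, was at 6.91, 6.28, 7.98 and 8.32 FPKM in SOL and 0.753, 0.873, 2.42 and 1.51 in PEM (1.85 ± 0.19, adjusted p = 1.46e-07). ESRRG, an orphan receptor of oxidative tissue, was at 13.1, 10.7, 20.4 and 11.7 FPKM in SOL and 1.92, 3.64, 4.09 and 4.22 in PEM (1.74 ± 0.24, adjusted p = 6.21e-06). No library of either muscle crossed into the range of the other for these 3 genes. RXRA, the partner receptor of the PPAR family, was lower in SOL at 29.8, 28.2, 29.8 and 20.5 FPKM in SOL and 73.6, 85.7, 87.8 and 112 in PEM (-1.69 ± 0.20, adjusted p = 5.67e-07). NRIP1, a corepressor of oxidative genes, had a fold change of -1.48 ± 0.26, adjusted p = 8.68e-05 and NRF1, a factor for nuclear genes of the respiratory chain, of -1.28 ± 0.16, adjusted p = 1.81e-06. UCP3, an inner membrane carrier, was at 296, 171, 464 and 205 FPKM in SOL and 502, 743, 819 and 968 in PEM (-1.48 ± 0.35, adjusted p = 0.00161), also lower in SOL, with no overlap.

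**Figure D3:**
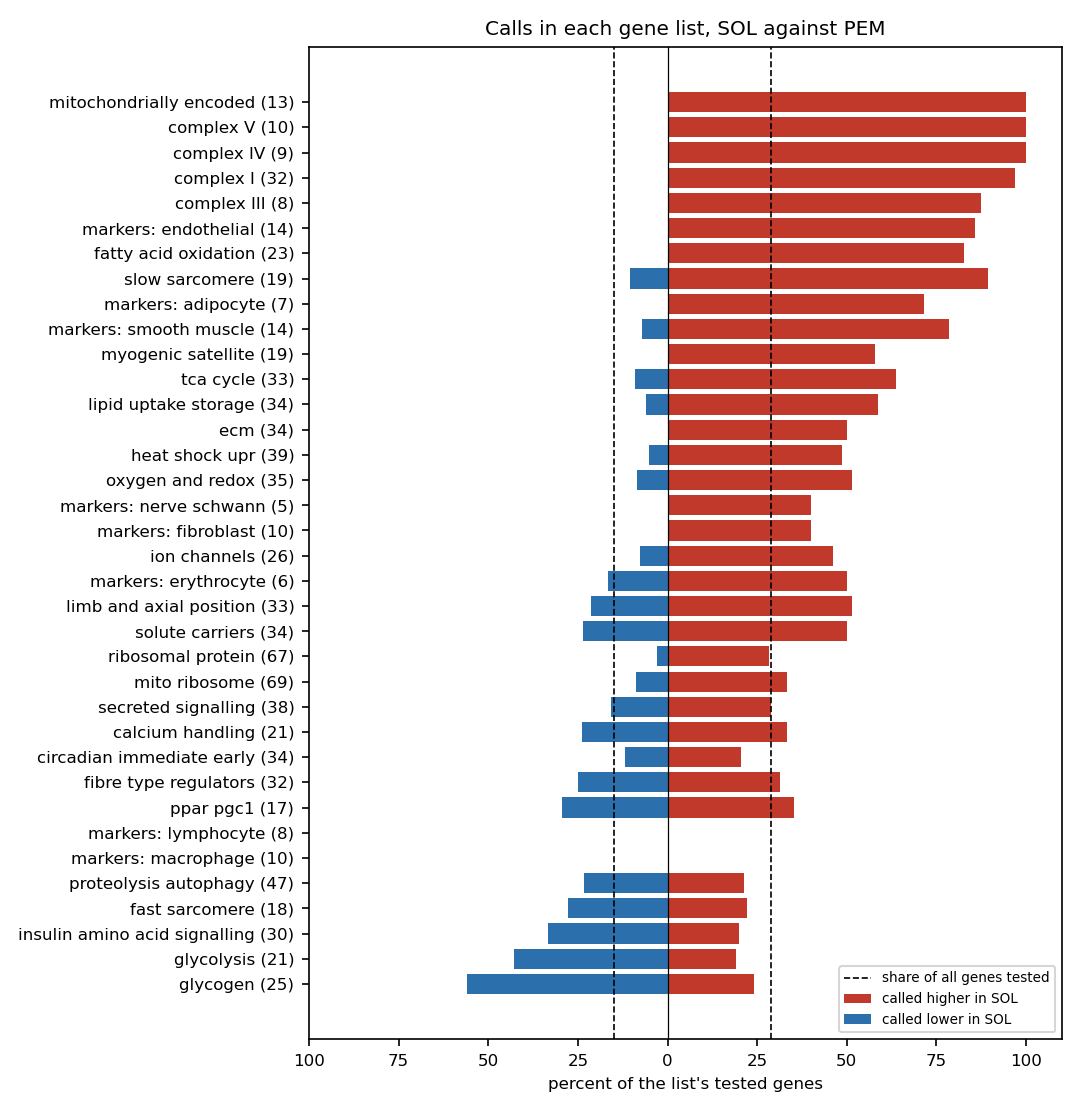
Percent of the tested genes of each list with at least 5 tested that were called higher (red, right) and lower (blue, left) in SOL at an adjusted p under 0.05, with the number tested in parentheses and dashed lines at the shares of all 10944 genes, 28.9% higher and 14.9% lower. The respiratory chain, mitochondrially encoded, endothelial and slow sarcomere lists are far to the right, and of the lists plotted only glycogen, glycolysis and insulin signalling have over 30% lower.

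Transcription factors and regulators linked to fibre type went both ways, 10 higher (31.25%) and 8 lower (25%) of 32, against 28.9% and 14.9% of all genes. Their median of 0.09 became -0.08 after quantile normalization. SOX6, which represses slow genes in mouse muscle, was at 3.75, 2.78, 3.32 and 2.04 FPKM in SOL and 6.07, 11.3, 9.33 and 8.07 in PEM (-1.28 ± 0.24, adjusted p = 2.12e-04). PROX1, which takes part in the slow programme in mouse and zebrafish, was at 0.799, 1.16, 0.941 and 3.32 FPKM in SOL and 0.0659, 0.137, 0.010 and 0.058 in PEM (1.16 ± 0.28, adjusted p = 0.00207). TBX1, which is linked to fast fibres in the mouse, was low and higher in SOL, at 2.52, 1.22, 2.23 and 1.99 FPKM in SOL and 0.292, 0.51, 0.19 and 0.0528 in PEM (1.24 ± 0.19, adjusted p = 2.35e-05). SIX2, a sine oculis homeobox factor, was at 39.3, 28.5, 23.7 and 13.1 FPKM in SOL and 85.4, 76.2, 71.3 and 101 in PEM (-1.72 ± 0.33, adjusted p = 2.59e-04). MAFA, one of the large Maf factors, was at 29.4, 26.8, 16.8 and 6.81 FPKM in SOL and 102, 100.3, 103 and 138 in PEM (-2.58 ± 0.60, adjusted p = 0.00142). RCAN1, an inhibitor of calcineurin that calcineurin signalling itself induces, was at 15.4, 43.7, 17.9 and 35.5 FPKM in SOL and 5.91, 4.71, 9.13 and 11.3 in PEM (1.67 ± 0.41, adjusted p = 0.00257). RCAN2 rose too (2.01 ± 0.60, adjusted p = 0.00965), but it overlapped and its adjusted p was 0.114 without SOL 4 and PEM 1. NFATC1, a target of calcineurin, was at 39.4, 38.1, 68.2 and 34.1 FPKM in SOL and 17.3, 30, 35 and 42.4 in PEM (0.53 ± 0.25, adjusted p = 0.0881) and was not called, although scaling to nuclear genes gave an adjusted p of 0.048 and leaving out PEM 4 one of 0.0366.

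HOX genes and limb factors, which mark the position of a tissue in the embryo, differed widely between the muscles. The list held 78 such genes, of which 33 were tested. Of these, 17 were higher in SOL (51.5%) and 7 lower (21.2%), against 28.9% and 14.9% of all genes. For 22 of the 33 the muscles did not overlap, against 41.9% of all genes. After quantile normalization 11 were higher and 8 lower, and without SOL 4 and PEM 1 13 and 7. Some members, such as HOXC10, HOXC11 and HOXA13, passed the expression filter only through SOL libraries, which favours a difference. HOXC10, a hindlimb and lumbar HOX gene, was at 41.6, 43.9, 37.8 and 35.3 FPKM in SOL and 0.196, 0, 0 and 0 in PEM (5.28 ± 0.13, adjusted p = 2.05e-18). HOXC11, its neighbour in the HOXC cluster, was at 4.12, 2.87, 2.99 and 3.21 FPKM in SOL and was listed at 0 in all 4 PEM libraries (adjusted p = 1.58e-08). HOXA13, expressed in the distal limb in embryos, was at 4.7, 3.26, 4.28 and 2.17 FPKM in SOL and 0.0144, 0.0344, 0.0351 and 0.0193 in PEM (2.13 ± 0.16, adjusted p = 1.08e-09). None of the 3 genes reached 0.2 FPKM in any PEM library. PITX1, a hindlimb factor, was at 1.67, 1.35, 1.39 and 4.19 FPKM in SOL and 0.0497, 0.0431, 0 and 0.271 in PEM (1.45 ± 0.36, adjusted p = 0.00272). TBX4, the hindlimb T-box gene, was at 0.691, 0.355, 0.413 and 0.297 FPKM in SOL and at most 0.0492 in PEM. TBX5, its forelimb counterpart, was listed at 0 in all 4 SOL libraries and was at 0.249, 0.0669, 0.124 and 0.189 in PEM, and both were too low to be tested. NR2F2, a nuclear receptor, rose with 2.38 ± 0.18, adjusted p = 1.24e-09, and TBX15, a T-box factor of muscle and skeleton, was at 153, 96.4, 132 and 139.9 FPKM in SOL and 13.7, 29.9, 59.9 and 51.7 in PEM (1.90 ± 0.31, adjusted p = 4.95e-05).

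In the other direction, SIM2, a bHLH-PAS factor, was at 0.385, 0.172, 0.0191 and 0.213 FPKM in SOL and 30.2, 37, 35 and 39.5 in PEM (-4.93 ± 0.18, adjusted p = 3.83e-15). Every PEM library held at least 30 FPKM of SIM2 and no SOL library reached 0.4. HOXA7, a HOX gene of the trunk, was at 9.46, 9.51, 11.4 and 10.9 FPKM in SOL and 39.3, 36.8, 32.3 and 38.9 in PEM (-1.74 ± 0.16, adjusted p = 1.76e-08). HOXA5, of more anterior levels, was at 1.39, 1.92, 1.36 and 2.03 FPKM in SOL and 6.84, 5.25, 7.44 and 9.11 in PEM (-1.60 ± 0.16, adjusted p = 1.07e-07). MEIS1, a HOX cofactor, was at 2.38, 2.39, 1.46 and 1.51 FPKM in SOL and 12.5, 11.2, 9.38 and 8.41 in PEM (-1.96 ± 0.16, adjusted p = 3.09e-09). Named after their values were seen, HOXA6 (-0.83, adjusted p = 3.08e-04) and HOXA10 (-1.11, adjusted p = 7.36e-04) were also lower in SOL. FRMD5, a FERM domain protein outside this list, had a similar pattern to SIM2 at 0.19, 0.013, 0.042 and 0.0708 FPKM in SOL and 27.3, 25.5, 21.6 and 31 in PEM (-4.65 ± 0.16, adjusted p = 1.48e-15). Both SIM2 and FRMD5 passed the expression filter through PEM libraries, which favours a difference.

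**Figure D4:**
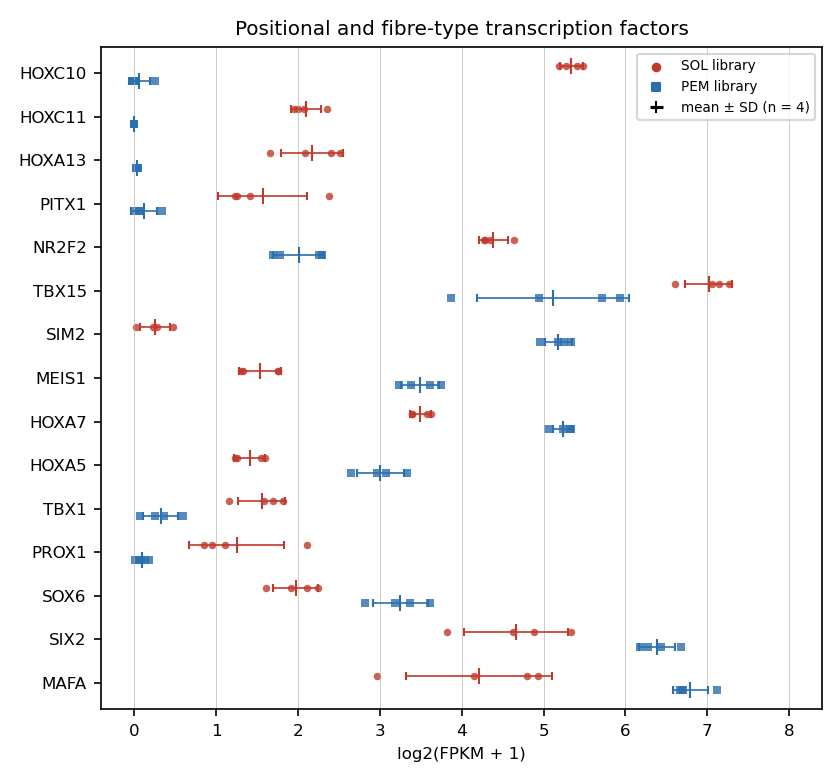
Level of 15 transcription factor genes as log2(FPKM + 1) (x axis) in the 4 SOL libraries (red circles) and 4 PEM libraries (blue squares), with a tick and bar for the mean ± SD (n = 4). HOXC10, HOXC11, HOXA13 and PITX1 lie near zero in PEM, SIM2 lies near zero in SOL, and the muscles do not overlap for any of the 15.

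Oxygen transport and antioxidant genes were higher in SOL for 18 of 35 tested (51.4%) and lower for 3 (8.6%), against 28.9% and 14.9% of all genes. After quantile normalization the counts were 16 and 5. MB, myoglobin, which stores oxygen in fibres, was at 5418, 5718, 5429 and 6265 FPKM in SOL and 142, 38, 20.4 and 38.8 in PEM (6.93 ± 0.39, adjusted p = 1.10e-11), and PEM 1 held several times the MB of the other PEM libraries. CAT, catalase, was at 50, 57.5, 42.8 and 52.3 FPKM in SOL and 19.2, 11.9, 19.6 and 14.8 in PEM (1.59 ± 0.22, adjusted p = 4.92e-06). HMOX1, heme oxygenase, rose with 1.72 ± 0.26, adjusted p = 1.67e-05, and SRXN1, which repairs peroxiredoxins, with 1.75 ± 0.27, adjusted p = 2.64e-05. VEGFA, the growth factor of blood vessels, was at 39.9, 42.9, 28.3 and 39.4 FPKM in SOL and 17.4, 13.4, 23 and 13.6 in PEM (1.13 ± 0.22, adjusted p = 2.55e-04). EGLN3, an oxygen sensor, was at 1.07, 0.141, 0.514 and 0.402 FPKM in SOL and 9.08, 6.99, 7.32 and 5.09 in PEM (-2.42 ± 0.22, adjusted p = 1.67e-08). AK1, adenylate kinase, was at 327, 284, 236 and 162 FPKM in SOL and 997, 971, 1144 and 961 in PEM (-2.05 ± 0.30, adjusted p = 1.20e-05), both lower in SOL. CKMT2, mitochondrial creatine kinase, overlapped (0.14 ± 0.25, adjusted p = 0.675), and its sign turned after quantile normalization.

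Endothelial markers were higher in SOL for 12 of 14 (85.7%) and lower for none, against 28.9% and 14.9% of all genes. Their summed level was 177 to 207 FPKM in SOL and 69.7 to 106 in PEM. KDR, a VEGF receptor, was at 10.7, 10.1, 7.25 and 12.1 FPKM in SOL and 1.4, 2.67, 1.99 and 1.08 in PEM (2.0 ± 0.18, adjusted p = 2.18e-08). TIE1 and VWF rose with 1.17 ± 0.18, adjusted p = 2.05e-05, and 1.17 ± 0.22, adjusted p = 2.52e-04. Smooth muscle and pericyte markers rose for 11 of 14 (78.6%) and fell for 1 (7.1%). Their sum of 3197 to 3903 FPKM in SOL and 1194 to 1475 in PEM was mostly DES, which skeletal fibres also make. DES was at 3178, 2873, 3027 and 3557 FPKM in SOL and 1317, 1065, 1234 and 1189 in PEM (1.39 ± 0.19, adjusted p = 7.21e-06). RGS5, a pericyte gene, was at 86.4, 105, 110.5 and 109 FPKM in SOL and 39.5, 41.5, 40.9 and 46.1 in PEM (1.27 ± 0.19, adjusted p = 1.69e-05). CNN1, calponin, was at 26.7, 70.6, 34.5 and 92.6 FPKM in SOL and 13.3, 0.665, 2.86 and 8.33 in PEM (3.23 ± 0.70, adjusted p = 7.80e-04). MYOCD, a coactivator of smooth and cardiac muscle genes, was the member that fell (-1.66 ± 0.44, adjusted p = 0.00418).

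Of 10 fibroblast markers tested 4 rose (40%) and none fell, while 28.9% of all genes were higher and 14.9% lower. After quantile normalization 2 rose and 1 fell, and 2 rose without any 1 of SOL 1, SOL 4, PEM 3 and PEM 4. The fibroblast sum was 228 to 329 FPKM in SOL and 96.4 to 240.0 in PEM, where library 1 was highest. SERPINF1 was at 60.9, 47.8, 38.4 and 70.3 FPKM in SOL and 25.2, 18, 17.2 and 11.4 in PEM (1.56 ± 0.35, adjusted p = 0.00102) and MFAP5 at 45.9, 38.7, 23.9 and 24.8 FPKM in SOL and 20.1, 19.2, 5.35 and 5.42 in PEM (1.52 ± 0.36, adjusted p = 0.00161). Extracellular matrix genes rose for 17 of 34 (50%) and fell for none, with 14 and 1 after quantile normalization. PEM 1 was the highest PEM library for 12 of the 17. Without SOL 4 and PEM 1, 18 rose. HSPG2, perlecan, was at 76.1, 95.5, 101 and 78.6 FPKM in SOL and 50.2, 31.2, 14.7 and 24 in PEM (1.64 ± 0.22, adjusted p = 5.51e-06). COL4A1, a basement membrane collagen, had a fold change of 1.11 ± 0.17, adjusted p = 2.99e-05. Limma called 0 of 10 macrophage markers and 0 of 8 lymphocyte markers (at an unadjusted p under 0.05, 2 and 0, and after quantile normalization 0 and 0 called). Their sums overlapped, at 274 to 383 FPKM in SOL and 118 to 430.2 in PEM for macrophages and 15.1 to 21.0 and 10.4 to 39.8 for lymphocytes, with PEM 1 highest, and without PEM 1 3 macrophage markers rose. Sums are over all marker genes in the table, including those too low to test. Schwann cell markers summed to 29.2 to 37.4 FPKM in SOL and 21.0 to 28.4 in PEM, and 2 of 5 tested rose (40%). After quantile normalization 1 rose, and with no expression filter, when more of the list were tested, 6 did. Red blood cell markers summed to 133 to 186 FPKM in SOL and 70.9 to 102 in PEM. Of 6 tested 3 rose (50%), or 1 without PEM 3, while RHCE, a Rhesus blood group gene, fell (-0.92 ± 0.19, adjusted p = 6.65e-04). Markers of skin epithelium summed to 0.899 to 1.77 FPKM in SOL and 2.70 to 6.64 in PEM, and the 1 gene tested, TP63, was lower in SOL (-1.41 ± 0.32, adjusted p = 0.00134). None of these lists had a marker at 0 in all 8 libraries, and their part in the muscle difference was not tested.

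The acetylcholine receptor of the nerve-muscle junction was higher in SOL. CHRNA1, its alpha subunit, was at 25.6, 14.4, 8.16 and 27.3 FPKM in SOL and 2.18, 1.41, 1.46 and 2.19 in PEM (2.70 ± 0.40, adjusted p = 1.57e-05). CHRND, the delta subunit, was at 10.9, 13.2, 17 and 16.5 FPKM in SOL and 3.99, 3.72, 3.95 and 2.22 in PEM (1.79 ± 0.24, adjusted p = 3.53e-06). CHRNG, the gamma subunit of embryonic muscle, rose with 1.46 ± 0.26, adjusted p = 1.38e-04. MUSK, the kinase that gathers these receptors, and NCAM1, an adhesion molecule, rose with 1.51 ± 0.38, adjusted p = 0.00273, and 1.81 ± 0.36, adjusted p = 3.26e-04. These belonged to a list of 19 myogenic, satellite cell and junction genes, of which 11 rose (57.9%) and none fell. The shares of all genes were 28.9% and 14.9%, and after quantile normalization 10 of the list rose and 2 fell. SOL 4 was the highest SOL library for 6 of the 11, and without SOL 4 and PEM 1 10 rose and none fell.

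Ion channel genes rose for 12 of 26 (46.2%) and fell for 2 (7.7%), against 28.9% and 14.9% of all genes. After quantile normalization 10 rose and 2 fell. KCNH2, a potassium channel of the heart, was at 34.5, 47.6, 48.2 and 34.2 FPKM in SOL and 3.36, 0.92, 0.993 and 1.92 in PEM (3.97 ± 0.29, adjusted p = 7.98e-10). SCN4B, a sodium channel beta subunit, was at 50.2, 16.9, 62.3 and 28.5 FPKM in SOL and 4.21, 6.4, 6.52 and 6.14 in PEM (2.42 ± 0.36, adjusted p = 1.54e-05). FXYD6, a regulator of the sodium pump, rose with 2.25 ± 0.26, adjusted p = 6.12e-07. Among solute carriers 17 of 34 rose (50%) and 8 fell (23.5%), with 15 and 8 after quantile normalization. SLC6A6, the taurine transporter, was at 30.4, 23.5, 43 and 27 FPKM in SOL and 1.94, 0.984, 0.932 and 0.802 in PEM (3.88 ± 0.30, adjusted p = 1.46e-09). SLC8A3, a sodium-calcium exchanger, was at 17.4, 10.5, 19.8 and 9.63 FPKM in SOL and 1.51, 1.31, 2.25 and 3.02 in PEM (2.32 ± 0.27, adjusted p = 6.12e-07). SLC7A5, a carrier of large neutral amino acids, was at 5.77, 2.81, 3.68 and 3.79 FPKM in SOL and 49.4, 28, 36 and 44 in PEM (-3.01 ± 0.33, adjusted p = 3.13e-07). SLC16A9, a monocarboxylate carrier, was at 3.31, 1.96, 4.43 and 1.4 FPKM in SOL and 27, 45.7, 32.9 and 26.7 in PEM (-3.21 ± 0.43, adjusted p = 4.27e-06). SLC2A1, the glucose transporter GLUT1, was higher in SOL (2.04 ± 0.33, adjusted p = 4.19e-05).

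Other genes were named for the size of their fall. GADL1, an enzyme of beta-alanine and taurine metabolism, was at 10.6, 7.91, 6.25 and 4.63 FPKM in SOL and 168, 105, 103 and 82.9 in PEM (-3.79 ± 0.48, adjusted p = 2.25e-06). GLS2, a glutaminase, was at 14.5, 10.9, 12.3 and 7.07 FPKM in SOL and 82.5, 121, 183 and 192 in PEM (-3.54 ± 0.29, adjusted p = 2.97e-09). Chosen after its value was seen, an unnamed gene that the table annotates as carnosine N-methyltransferase, the enzyme that makes anserine, ENSGALG00000033461, was at 8.13, 3.63, 2.42 and 2.32 FPKM in SOL and 88, 43.2, 45.7 and 47.5 in PEM (-3.55 ± 0.55, adjusted p = 2.35e-05). NTMT2, a protein N-terminal methyltransferase, fell with -4.33 ± 0.35, adjusted p = 2.34e-09. NRGN, neurogranin, fell with -4.01 ± 0.42, adjusted p = 1.39e-07. KY, a muscle protein whose loss causes kyphoscoliosis in mice, fell with -3.26 ± 0.62, adjusted p = 2.34e-04.

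Small heat shock proteins that protect sarcomeres were higher in SOL. Of their list of 39 chaperone and stress genes 19 rose (48.7%) and 2 fell (5.1%), against 28.9% and 14.9% of all genes. After quantile normalization 14 rose and 3 fell. HSPB7 was at 1035, 1408, 1063 and 2149.5 FPKM in SOL and 145, 385, 342 and 105 in PEM (2.67 ± 0.37, adjusted p = 6.36e-06). CRYAB, alpha-B crystallin, was at 309, 309, 304 and 494 FPKM in SOL and 74.2, 60.1, 71.6 and 98.2 in PEM (2.19 ± 0.28, adjusted p = 1.92e-06). HSPB1 rose with 1.33 ± 0.25, adjusted p = 2.00e-04, and DNAJB5 with 2.49 ± 0.30, adjusted p = 1.06e-06. SOL 4 was the highest SOL library for 13 of the 19, and without SOL 4 and PEM 1 15 rose and 2 fell. Proteolysis and autophagy genes showed no common direction, 10 higher (21.3%) and 11 lower (23.4%) of 47, against 28.9% and 14.9% of all genes. Without SOL 4 and PEM 1 the counts were 7 and 11. ASB18, given above, belonged to this list and had its largest change (6.60 ± 0.20, adjusted p = 1.86e-16), higher in SOL. ASB2 and ASB4, substrate receptors of ubiquitin ligases, were lower in SOL, with -1.76 ± 0.34, adjusted p = 2.44e-04, and -1.69 ± 0.19, adjusted p = 2.97e-07. TRIM55, the ubiquitin ligase MuRF2, was lower too (-1.38 ± 0.31, adjusted p = 0.00118), whereas CAST, the calpain inhibitor, was higher (1.62 ± 0.24, adjusted p = 1.21e-05).

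Insulin and amino acid signalling genes were lower for 10 of 30 (33.3%) and higher for 6 (20%), against 14.9% and 28.9% of all genes. Of the 10 that fell, 7 were lowest in SOL 4 among the SOL libraries. Without SOL 4 and PEM 1, 8 were lower and 3 higher, and without SOL 3 9 and 3. IRS1, an adaptor of the insulin receptor, was at 8.98, 6.43, 4.36 and 3.52 FPKM in SOL and 15.6, 8.59, 13.4 and 16.1 in PEM (-1.11 ± 0.23, adjusted p = 5.91e-04). SESN1, a sensor of leucine, was at 55.9, 64.2, 125 and 53 FPKM in SOL and 175, 483, 258 and 154 in PEM (-1.77 ± 0.40, adjusted p = 0.00129). GRB10, an adaptor that damps insulin signalling, was at 42.8, 46.2, 51.8 and 48 FPKM in SOL and 10.3, 13.4, 27.6 and 20.2 in PEM (1.44 ± 0.29, adjusted p = 4.79e-04). Of 38 secreted factors 11 rose (28.9%) and 6 fell (15.8%), close to the shares of all genes. These counts moved with the setting, to 7 and 8 after quantile normalization, 12 and 3 without SOL 4 and PEM 1, 11 and 2 without SOL 3, 8 and 2 without PEM 3, and 7 and 4 without PEM 4. FNDC5, the precursor of irisin, was at 31, 28.1, 42.6 and 49.8 FPKM in SOL and 1.37, 0.28, 0.711 and 0.589 in PEM (4.48 ± 0.22, adjusted p = 7.23e-13), and every SOL library was above 28 FPKM and every PEM library below 1.4. TGFB2 and IGFBP7 rose with 1.14 ± 0.23, adjusted p = 4.70e-04, and 1.09 ± 0.18, adjusted p = 6.24e-05, and IGFBP3 fell with -1.0 ± 0.22, adjusted p = 8.75e-04. Clock and immediate early genes rose for 7 of 34 (20.6%) and fell for 4 (11.8%), both below the shares of all genes, and 2 fell without PEM 4 and 7 with only the 8 LHFD libraries in the fit. NR4A3, an orphan receptor induced by exercise in mammals, was at 115, 151, 118 and 357 FPKM in SOL and 19.7, 16.2, 54.3 and 27.9 in PEM (2.59 ± 0.53, adjusted p = 4.99e-04). ARNTL, the core clock gene BMAL1, was at 4.58, 4.11, 4.65 and 3.77 FPKM in SOL and 8.74, 10.1, 8.64 and 9.87 in PEM (-0.97 ± 0.17, adjusted p = 7.68e-05). Cytosolic ribosomal proteins depended most on scaling and on 1 library. Of 67, 19 rose (28.4%) and 2 fell (3.0%). The counts were 4 and 3 after quantile normalization and 33 and 2 after scaling to nuclear genes. Without PEM 1, the highest PEM library for all 19, 40 were higher. RPL3 was at 132, 217, 115 and 213 FPKM in SOL and 79.6, 39.7, 30.1 and 21.1 in PEM (2.08 ± 0.38, adjusted p = 1.77e-04). RPS27L, a stress-inducible relative of RPS27, was at 5.71, 6.19, 4.5 and 5.18 FPKM in SOL and 22.2, 19.6, 24.4 and 19.1 in PEM (-1.81 ± 0.13, adjusted p = 7.98e-10).

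To see whether the muscle difference depended on diet, it was set beside the differences of the other diets, which rest on other libraries but share the spread of the fit. Under CONT 50.7% of the genes were called and under SHFD 51.6%. Of the 3163 genes higher in SOL under LHFD, 2631 (83.2%) were higher under CONT, which is 78.2% of the CONT genes, and 2391 (75.6%) under SHFD, 82.4% of the SHFD genes. Of the 1632 lower genes, 1429 (87.6%, or 65.3% of those of CONT) and 1525 (93.4%, or 55.6% of those of SHFD) were shared. Opposite signs were called for 3 genes against CONT and 4 against SHFD. Of the 4795 genes called under LHFD, 3605 were called in all 3 diets. Across the 10944 genes, which share libraries and are no independent replicates, the log2 fold changes of LHFD and CONT had a Pearson r of 0.932 and Spearman rho of 0.896, and those of LHFD and SHFD 0.925 and 0.888. Of 254 genes chosen by rule and called under LHFD, 248 had the same sign in both other diets and 221 were called with it in both. The rule favoured large differences under LHFD and was written with earlier results of these data known, so these counts are no separate evidence.

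The slow sarcomere list had a median of 7.15 under LHFD, 8.42 under CONT and 6.90 under SHFD, with 17 of 19 genes higher in SOL in each diet. The fast sarcomere list had 4 higher and 5 lower under LHFD, 3 and 8 under CONT, and 2 and 10 under SHFD. For glycolysis the medians were -0.19, -0.28 and -0.50, and for glycogen -0.83, -0.87 and -1.11. Fatty acid oxidation stood at 1.11, 1.20 and 0.99 and complex I at 0.76, 0.73 and 0.69, in the same order. Some single genes kept their place: HOXC10 was at 5.28 under LHFD, 5.11 under CONT and 4.98 under SHFD, and SIM2 at -4.93, -4.50 and -4.87. Others did not. KLHL38 was at 1.17, -0.14 and -0.52, in the same order. Under LHFD its muscles overlapped, and its limma call was lost without SOL 3, SOL 4 or PEM 4 (adjusted p 0.0662 to 0.0752). Without SOL 4 and PEM 1 together the adjusted p of KLHL38 was 0.105. Chosen after their values were seen, ABRA was at 0.13, 3.43 and 2.04, GLUL at -0.07, -2.28 and -1.33, and XIRP1 at -0.69, 1.84 and 2.45. The list medians carry no test, and the tests below called the difference between diets for none of the genes.

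Tests of the difference itself called 0 genes in limma, neither for LHFD against CONT (0%) nor for LHFD against SHFD (0%). At an unadjusted p under 0.05 there were 620 genes (5.67%) and 939 (8.58%), and the smallest adjusted p was 0.105 and 0.0773. With the replicate block limma called 1 gene higher in each difference. PEM 2 of CONT had the lowest mean correlation with its own group of the 24 libraries, 0.943. It held 10484 genes at 1 FPKM, against 9285 to 9432 in the other CONT PEM libraries. This library enters the difference against CONT and the spread shared by the fit. The 0 calls therefore do not show that the muscle difference is equal between diets. MYOT, myotilin, a Z-disc protein, had the smallest p against CONT among the genes chosen by rule. It was at 735, 1072, 926 and 1488 FPKM in SOL and 84.8, 97.8, 131 and 156 in PEM under LHFD, and at 1366 ± 369 in SOL and 45.2 ± 7.65 in PEM under CONT (SD, n = 4). The muscle difference was thus 3.15 against 4.87 (difference -1.71 ± 0.32, adjusted p = 0.106). After quantile normalization the adjusted p of that difference was 0.0333, without SOL 4 of LHFD 0.0397 and without PEM 2 of CONT 0.0328. PRKAG2, at 2.41 under LHFD, was at 9.62 ± 5.27 FPKM in SOL and 4.82 ± 0.602 in PEM under CONT (SD, n = 4), a muscle difference of 0.76 (difference 1.64 ± 0.33, adjusted p = 0.144). Without the library numbered 4 of CONT SOL the adjusted p was 0.00193. SLC8A3 differed by 1.70 ± 0.38, adjusted p = 0.268, and CPT1A by 1.29 ± 0.34, adjusted p = 0.338. NPC1, a cholesterol carrier of lysosomes, differed by 1.23 ± 0.27, adjusted p = 0.268, and by the same omission its adjusted p was 0.0118. ANKRD1, with -3.16 under LHFD and -0.25 under CONT, differed by -2.91 ± 1.26, adjusted p = 0.781.

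Against SHFD, NFATC1 had the smallest p, with a muscle difference of 0.53 under LHFD and -1.45 under SHFD (difference 1.98 ± 0.35, adjusted p = 0.0773). Its SHFD levels were 15.9 ± 5.36 FPKM in SOL and 44.1 ± 6.79 in PEM (SD, n = 4), beside a SOL mean of 44.9 ± 15.7 and a PEM mean of 31.2 ± 10.6 under LHFD. Without SHFD SOL 2 the adjusted p was 0.0237 and without LHFD PEM 4 it was 0.0234. NABP1, a single-stranded DNA binding protein, differed by 1.53 ± 0.27, adjusted p = 0.0773, and with the replicate block its adjusted p was 0.0233. ASB14, an ankyrin repeat protein with a SOCS box, was at 44.8, 36.8, 37.8 and 35.8 FPKM in SOL and 62.1, 67.1, 66.1 and 74.1 in PEM under LHFD and at 14.7 ± 6.34 in SOL and 75 ± 15 in PEM under SHFD (SD, n = 4), a difference of 1.57 ± 0.31, adjusted p = 0.118. Without SHFD SOL 2 its adjusted p was 0.0237. SEMA6D, a semaphorin, and MIER1, a chromatin regulator, differed by 1.76 ± 0.35, adjusted p = 0.118, and 0.71 ± 0.14, adjusted p = 0.137.

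**Figure D5:**
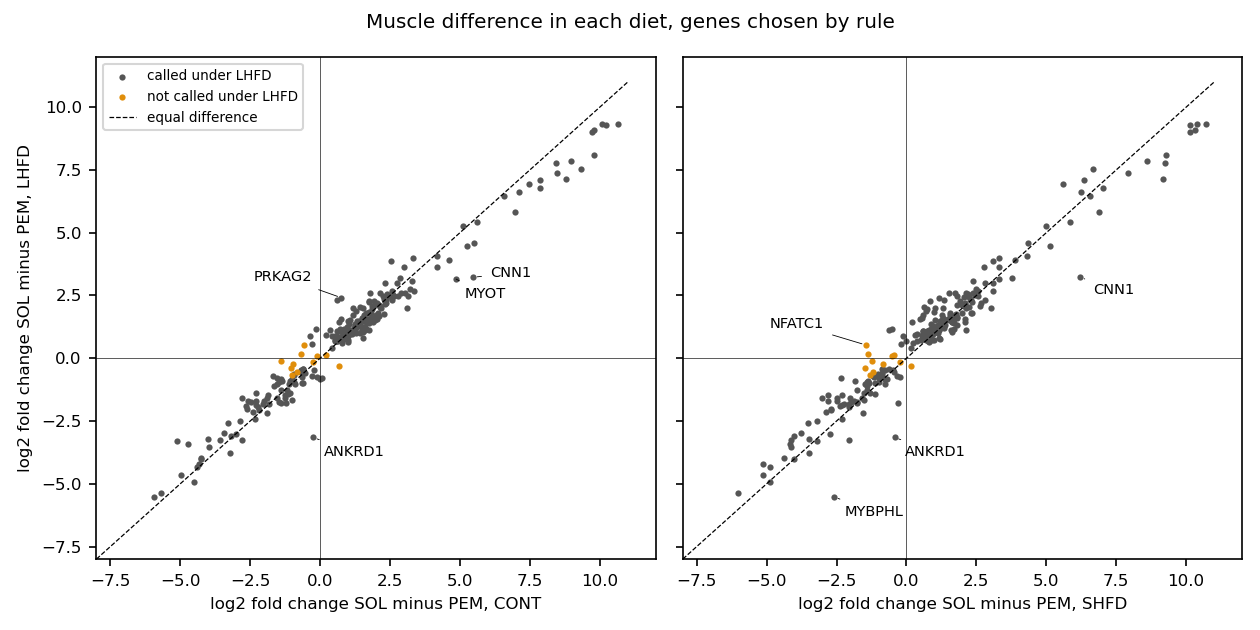
Log2 fold change of SOL over PEM under LHFD (y axis) against that under CONT (left) and SHFD (right) for the 265 tested genes chosen by rule, with grey points for genes called under LHFD, orange points for the others and a dashed line of equal difference. Points follow the line, the largest differences lie below it in the left panel, and the labelled genes are among those farthest from it, none with a called difference between diets.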

How the data were processed

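Total RNA of muscle blocks was sequenced, 4 libraries per muscle and diet. The labels' protocols name fastp for trimming, HISAT2 for alignment to GRCg6a (Ensembl, 2022) and StringTie v1.3.3b for quantification. Cufflinks and DESeq2 appear in the submitters' processing notes with no version or role. The authors deposited FPKM per gene, scaled to transcript length and mapped fragments, so the read depth is unknown and no counting interval is given. A further sheet lists 30 library names without values and was not used.

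Values were taken as log2(FPKM + 1) for genes reaching 1 FPKM in 4 or more of 24 libraries. Limma 3.58.1 (R 4.3.3), with a variance trend, fitted 6 group means to all 24 libraries (18 residual degrees of freedom). Tests were two-sided with Benjamini-Hochberg adjustment over 10944 genes, threshold 0.05. Muscle differences under 2 diets were compared as contrasts of the same fit. A run on simulated, independent genes, few of them changed, checked the code only. It says nothing on how well the calls hold in these data. Genes were assigned to 37 lists by symbol, and 8873 tested genes had a symbol. Named genes were the 15 largest rises and falls with a mean of at least 5 FPKM, up to 6 called members per list plus up to 4 against its majority, a set of fixed genes, and the 5 genes with the smallest p for each difference between diets. Members, lists and rule were chosen with earlier results of these data known. Alternatives were quantile normalization, scaling to nuclear-encoded genes, a pseudocount of 0.1, no filter, no trend, a replicate block, the 8 libraries alone and leaving out each library. A fit without SOL 4 and PEM 1 was added after seeing the data. ATP2A1, CKM, PYGM, CPT1B and MSTN were not found under these symbols, and some genes that the naming rule gives are not reported here.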

Additional observations from a re-analysis of the deposited data

Results flagged for a closer look

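A library was singled out where, among the 4 libraries of a muscle, its gap to the nearest other, as a share of their whole range on the log2(FPKM + 1) scale, exceeded Dixon's 95% critical value. This held in 37 of 518 groups of 4 libraries over the genes named by rule and reported here, 7.14%, where chance gives about 1 in 20. PEM 1 had 9 such genes, SOL 4 had 8, PEM 4 had 7, and the other 5 libraries 1 to 4 each. Values below are in FPKM, beside the range of the other 3 libraries of the same muscle.

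In the library numbered 4 of SOL, which also stood apart in its sums of slow and fast sarcomere genes, myosin, chaperone and regulator genes were singled out. MYH1C was low at 1589 (2823 to 3119.8). PGM5 was high at 172 (70.8 to 80.9). NDUFV3 was low at 24.1 (30.9 to 32.5). MRPL1 was high at 18.9 (15.8 to 16). RXRA was low at 20.5 (28.2 to 29.8). CIDEC was low at 1.02 (1.95 to 2.16). CRYAB was high at 494 (304 to 309). PITX1 was high at 4.19 (1.35 to 1.67).

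In PEM 1, which had the highest sums of several other-cell markers in PEM, the genes were of several kinds. MYH1E was low at 10851 (13313 to 13576). PDK4 was low at 17.1 (88.9 to 120.2). COX7B was high at 169 (154 to 156). HOXC10 was high at 0.196 (0 in each of the others). With the others at 0, any value above 0 would be singled out. This flag is in the counts above but says nothing about the library. SCN4B was low at 4.21 (6.14 to 6.52). FXYD6 was high at 21.4 (10.1 to 11.1). TRPM7 was low at 2.52 (3.54 to 3.57). SLC2A1 was high at 4.67 (1.67 to 1.8). MIER1 was low at 5.18 (5.99 to 6.15).

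In PEM 4, lipid and regulator genes were among those singled out. ATP5B was high at 391 (303 to 316). HADHB was high at 51 (33.5 to 34.8). DGAT2 was high at 26.1 (6.73 to 8.0). MAFA was high at 138 (100.3 to 103). CHRND was low at 2.22 (3.72 to 3.99). FMOD was low at 0.427 (1.13 to 1.29). NR4A1 was high at 152 (99.1 to 104).

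The remaining genes were singled out in other libraries. In SOL 1, KY was high at 3.86 (0.715 to 0.987) and MRPL38 was low at 14.1 (17.2 to 17.8). In SOL 1, FGF16 was high at 51.6 (26.2 to 29.2) and IGFBP3 was high at 7.65 (4.95 to 5.19). In SOL 2, PDK4 was low at 256 (713 to 878). In SOL 3, COL8A1 was low at 1.88 (3.18 to 3.29) and CHRDL2 was low at 1.32 (2.48 to 2.73). In SOL 3, IRS4 was high at 7.07 (5.5 to 5.71). In PEM 2, MT-CO1 was low at 9064 (10942 to 11341) and SLC7A2 was low at 4.96 (7.72 to 8.35). In PEM 2, FGF13 was low at 15.3 (30.3 to 34). In PEM 3, GDNF was high at 2.11 (1.54 to 1.58) and CKMT2 was high at 1118 (844 to 881). No cause was tested for any of these values.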

How the results depend on the processing

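Of the muscle differences of 265 named genes, 264 kept direction and side of the threshold with a pseudocount of 0.1, 262 with scaling to nuclear genes, 260 with the 8 libraries alone, 253 after quantile normalization and 252 with no filter. With SOL 4 and PEM 1 left out together, 15 lost their call and 250 kept direction and side of the threshold. Leaving out 1 library at a time did so for 2039 of 2120 values, and 23 genes lost their call in at least 1 of these fits. The numbers of genes higher and lower ranged from 2698 to 3212 and from 1318 to 1635 across those fits. Quantile normalization gave 2130 higher and 2786 lower genes and a median over all genes of -0.047, and scaling to nuclear genes 3770 and 1270, of which 74.8% were higher. The sign turned for CKMT2 after quantile normalization (-0.044), for TNNC2, which ranged from -0.0037 without SOL 1 to 0.23 without SOL 4, and for CPT1A, which ranged from -0.27 without PEM 2 to 0.10 without PEM 4 (0.05 without SOL 2), and the cause was not tested. The difference between diets called 0 genes with most settings. Against CONT, quantile normalization called 1 higher and 1 lower gene, the replicate block 1 higher, the fit without SOL 4 and PEM 1 2 lower, and leave-one-out fits 0 to 6 higher and 0 to 3 lower. Against SHFD, the replicate block called 1 higher gene and leave-one-out fits 0 to 3 higher and 0 to 1 lower. Libraries of the same number in the 2 muscles did not deviate together under LHFD (r from -0.12 to 0.09). There, 1 of 4 SOL libraries correlated best with its own number. Pairs of other numbers reached a higher r under LHFD: 0.24 for SOL 2 with PEM 1, and 0.33 for SOL 3 with PEM 2 and for SOL 4 with PEM 3. Under CONT (r from 0.16 to 0.29) and SHFD (0.07 to 0.36) all 4 SOL libraries correlated best with their own number. This is a hint of pairing that the labels do not give. Whether LHFD libraries are paired under other numbers was not tested. With the replicate block as an alternative, which pairs equal numbers in every diet, 3148 genes were higher and 1524 lower. Depth is unknown, so the counting error of low values cannot be given.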

Other observations

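Several abundant genes without a symbol differed between the muscles. Of the 411 called with a mean of at least 5 FPKM, 264 were higher in SOL and 147 lower. Calls over all genes were split similarly, 3163 higher (28.9% of genes tested) and 1632 lower (14.9%), or 66.0% of calls higher. The split is therefore no trait of genes without a symbol. ENSGALG00000000295, the gene with the largest fall of all, was at 4.49, 0.0508, 0.207 and 0.135 FPKM in SOL and 794, 717, 412 and 356 in PEM (-8.33 ± 0.42, adjusted p = 1.58e-12). ENSGALG00000029073 was at 73.4, 133, 77.9 and 223 FPKM in SOL and 0.274, 0, 0 and 0 in PEM (6.76 ± 0.36, adjusted p = 4.09e-12). Neither pair of ranges overlapped.

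Some genes of carbohydrate and dipeptide metabolism outside the naming rule, chosen after their values were seen, were much lower in SOL. PKLR, a pyruvate kinase, was at 1722, 1507, 1215 and 771 FPKM in SOL and 7425, 8781, 8059 and 8179 in PEM (-2.70 ± 0.25, adjusted p = 2.15e-08). PGK2, a phosphoglycerate kinase, was at 546, 496, 364 and 232 FPKM in SOL and 3099, 2819, 2671 and 2602 in PEM (-2.84 ± 0.31, adjusted p = 2.31e-07). SLC37A4, which carries glucose 6-phosphate into the endoplasmic reticulum, was at 25.4, 19.6, 19.3 and 13 FPKM in SOL and 203, 143, 161 and 131 in PEM (-3.0 ± 0.20, adjusted p = 1.93e-10). CARNS1, which joins beta-alanine and histidine into carnosine, was at 13.9, 13.9, 10.8 and 8.58 FPKM in SOL and 80.9, 72.4, 129 and 119.8 in PEM (-2.97 ± 0.22, adjusted p = 7.76e-10), the same direction as GADL1. For these 4 genes the muscles did not overlap.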
